A study of Mus musculus with 21 samples.

Results

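A set of 40 protein-coding genes of the lysosome and of autophagy was followed through 4 groups of RNA libraries and 2 lists of c-MYC peaks from immortalized mouse embryonic fibroblasts (MEFs). They were taken by symbol from the 41608 genes of the count table and comprise lysosomal enzymes, membrane proteins, the TFEB family of transcription factors and autophagy factors. All 40 were found, and 39 passed the filter on low counts; Neu1, a sialidase, had 0 to 12 counts per library and was not tested. The choice also described the genes as carrying c-MYC peaks at their starts, which held for 28 of the 40 in Hsf1 wild-type cells, and as rising relative to growth genes after Hsf1 knockdown in LacZ cells. Because that rise was known when the genes were put together, its size in the LacZ line is given as a description.

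The RNA libraries come from MEFs that stably express LacZ or V5-GCN5 and were transfected for 2 days with 10 nM siRNA, with 3 libraries in each group. The groups are siHsf1 LacZ, siControl LacZ, siHsf1 GCN5 and siControl GCN5; siHsf1 libraries are labelled Hsf1 KD and siControl libraries Hsf1 WT, and every group carries an introduced protein. GCN5, encoded by Kat2a, acetylates histones as part of large coactivator complexes, and LacZ is a bacterial enzyme. CUT&RUN, which releases the DNA around an antibody-marked protein with a tethered nuclease, mapped c-MYC in Hsf1 CKO MEFs treated with 4-OHT for 7 days and in Hsf1 WT MEFs treated with ethanol for 7 days, 2 libraries each, against 1 IgG library of mixed cells. The labels do not give the number of clones behind each expressing line, nor whether the 3 libraries of a group were separate cultures, so p-values measure the spread between libraries. The study's question was how transcription driven by c-MYC depends on HSF1, best known as the driver of heat-shock genes. The 4 libraries of a c-Myc knockdown and its control were not analysed here.

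Lysosomes are acidic organelles in which hydrolases break down proteins, glycans and lipids, and autophagy delivers cytoplasmic cargo to them in membrane vesicles. Many genes of both systems are driven by TFEB, TFE3 and MITF, basic helix-loop-helix leucine-zipper factors that bind E-boxes with the core CACGTG, often within a longer sequence called the CLEAR element. Growth signalling through mTORC1 holds TFEB and TFE3 in the cytoplasm, so their own transcript levels are a poor measure of their activity. Heterodimers of MYC and MAX bind the same E-box core and drive ribosome biogenesis, the growth programme used here for comparison.

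Depth was 3693554 to 4274852 gene counts per library in the GCN5 line and 7224496 to 8162787 in the LacZ line, so depth and line coincide, and 3 counts equal 0.368 to 0.812 CPM (counts scaled to the library total). All CPM values given for genes carry TMM factors besides. Spike-in transcripts (ERCC) took 0.711 to 1.65% of counts, and the ratio of their subgroup A to subgroup B was 1.36 to 1.54 in every library although the labels name different mixes for siHsf1 and siControl. The 10 fibroblast markers summed to 8830 to 10300 CPM in siHsf1 LacZ, 6120 to 6900 in siControl LacZ, 8110 to 8320 in siHsf1 GCN5 and 7830 to 8030 in siControl GCN5 libraries, with Lum at 0 throughout; their part in the results was not tested. Endothelial markers summed to at most 1.41 CPM and muscle markers to at most 10.2 CPM in any library. Epithelial markers summed to 44.2 to 55.4 CPM in siHsf1 LacZ, 46.8 to 62.6 CPM in siControl LacZ, 33.1 to 37 CPM in siHsf1 GCN5 and 31.7 to 41.1 CPM in siControl GCN5 libraries, lower in every GCN5 library than in any LacZ library. Hsf1 itself had 57.7, 55.5 and 47.9 CPM in siHsf1 LacZ libraries, against 129, 129 and 135 CPM in siControl LacZ libraries (log2 fold change -1.28 ± 0.08 SE, edgeR adjusted p = 2.62e-12). In the GCN5 line it had 68.1, 74.7 and 73.2 CPM under siHsf1, against 137, 121 and 138 CPM under siControl (-0.88 ± 0.08, edgeR adjusted p = 8.34e-07). Kat2a had 125, 118 and 130 CPM in siHsf1 LacZ, 216, 215 and 220 in siControl LacZ, 248, 253 and 245 in siHsf1 GCN5 and 263, 234 and 246 in siControl GCN5 libraries. Whether its row counts the transcripts of the introduced GCN5 is not given in the sources used here. Myc had 99.7, 89.6 and 88.3 CPM in siHsf1 LacZ, 131, 143 and 148 in siControl LacZ, 158, 144 and 139 in siHsf1 GCN5 and 130, 108 and 125 in siControl GCN5 libraries.

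The proximal promoters of 6 members are printed because 5 of them hold the E-box core that both factor families bind and the sixth, Hexa, is a strongly changed member without one. Each runs 5′ to 3′ on the gene's own strand over 250 bases before and 50 bases from a RefSeq start (build GRCm38.p6), with every CACGTG in capitals. The windows are chrX:134600956-134601255 (minus strand) for Gla, chr8:3500269-3500568 (plus) for Mcoln1, chr8:13158911-13159210 (plus) for Lamp1, chr2:164833523-164833822 (plus) for Ctsa, chr7:126583187-126583486 (minus) for Cln3 and chr9:59539290-59539589 (plus) for Hexa.
Gla: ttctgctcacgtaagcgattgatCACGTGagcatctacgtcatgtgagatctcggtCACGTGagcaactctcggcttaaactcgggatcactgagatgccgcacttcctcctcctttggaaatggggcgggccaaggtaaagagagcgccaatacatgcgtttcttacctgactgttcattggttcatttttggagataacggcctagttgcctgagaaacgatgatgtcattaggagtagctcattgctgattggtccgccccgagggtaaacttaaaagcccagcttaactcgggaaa
Mcoln1: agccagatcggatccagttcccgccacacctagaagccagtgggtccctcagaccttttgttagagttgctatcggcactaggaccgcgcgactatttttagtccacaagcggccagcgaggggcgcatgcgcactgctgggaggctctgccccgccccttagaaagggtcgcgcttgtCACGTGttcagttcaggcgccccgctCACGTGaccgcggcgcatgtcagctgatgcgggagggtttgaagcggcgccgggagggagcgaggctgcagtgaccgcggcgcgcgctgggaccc
Lamp1: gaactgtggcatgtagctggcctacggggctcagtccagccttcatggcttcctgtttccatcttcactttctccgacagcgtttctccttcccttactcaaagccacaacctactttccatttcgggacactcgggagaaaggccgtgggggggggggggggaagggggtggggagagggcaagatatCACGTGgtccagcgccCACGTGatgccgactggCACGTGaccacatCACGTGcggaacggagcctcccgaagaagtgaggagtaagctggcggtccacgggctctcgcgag
Ctsa: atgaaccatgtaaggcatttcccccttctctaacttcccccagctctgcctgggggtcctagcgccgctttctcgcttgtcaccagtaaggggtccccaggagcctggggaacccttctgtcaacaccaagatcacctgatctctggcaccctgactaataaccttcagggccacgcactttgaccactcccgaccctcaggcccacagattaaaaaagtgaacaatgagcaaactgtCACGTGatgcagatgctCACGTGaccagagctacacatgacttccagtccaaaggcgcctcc
Cln3: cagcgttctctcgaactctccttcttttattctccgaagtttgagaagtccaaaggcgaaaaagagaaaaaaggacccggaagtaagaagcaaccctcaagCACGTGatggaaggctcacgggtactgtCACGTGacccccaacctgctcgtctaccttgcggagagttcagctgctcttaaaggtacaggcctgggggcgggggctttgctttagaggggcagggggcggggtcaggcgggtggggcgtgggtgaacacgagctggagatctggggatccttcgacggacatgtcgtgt
Hexa: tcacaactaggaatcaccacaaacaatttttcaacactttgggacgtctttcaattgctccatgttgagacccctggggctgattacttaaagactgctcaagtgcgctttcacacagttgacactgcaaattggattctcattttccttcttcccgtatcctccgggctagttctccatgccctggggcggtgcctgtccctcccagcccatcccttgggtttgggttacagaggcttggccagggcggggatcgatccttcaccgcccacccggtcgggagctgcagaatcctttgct

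With the start counted as position 1, the cores begin at positions -227 and -194 in Gla, -71 and -45 in Mcoln1, -149 and -121 in Cln3 and -12 and 6 in Ctsa; Lamp1 holds 4 of them, the first at -61. Ctsa and Cln3 each have another window in the table with no core. Windows were present in the RefSeq table for 34 of the 40 members, 33 of them tested. The core CACGTG, which reads the same on both strands, occurred in 12 of these 34 members (35.3%), against 12% of all tested genes with a window. Counted by window, it was in 12 of 42 member windows. The shares by window were 10% for tested genes and 7.15% for all 32851 windows in the table. Besides the 5 printed, the members with a core are Ctsd, Ctsl, Glb1, Gaa, Naglu, Atg5 and Atg7. Windows need not lie at the annotated gene start, where c-MYC peaks were sought. That of Atg7 (chr6:114670846-114671145) lies well downstream of its annotated start at 114643097. The printed Ctsa and Cln3 windows also belong to starts downstream of the annotated ones. The palindrome TCACGTGA, which contains that core, occurred in 5 members (14.7%: Gla, Mcoln1, Ctsa, Cln3 and Ctsd), against 2.33% of tested genes. By window it was in 5 of 42 for members, 1.92% for tested genes and 0.974% for all windows. The longer CLEAR palindrome, the core with GT before it and AC after it, contains both shorter motifs. It occurred in 1 member, Cln3, against 0.845% of tested genes. By window it was in 1 of 42 for members, 0.718% for tested genes and 0.326% for all windows. A heat shock element, sought on both strands as TTC, GAA and TTC with any 2 bases between each, was in 0 member windows, against 0.603% of all windows. A match is a run of letters, not a shown binding site.

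Levels per length ranged widely at baseline. In siControl LacZ libraries the median of the 39 tested members was 23.2 FPKM (fragments scaled to transcript length and depth, the authors' values), against 8.86 FPKM for all 12187 tested genes. Lamp1, a major glycoprotein of the lysosomal membrane, stood highest at 431 ± 17.5 FPKM (SD, n = 3). It was followed by Sqstm1 at 317 ± 7.99, Psap at 290 ± 9.02, Ctsd at 253 ± 16.1 and Ctsz at 187 ± 14.2 FPKM. The transcription factors were far lower, with 23.6 ± 0.554 FPKM for Tfe3, 6.71 ± 0.469 for Tfeb and 1.33 ± 0.215 for Mitf. Gabarap at 2.19 ± 0.552 and Cln3 at 2.11 ± 0.0443 FPKM were the lowest tested members beside Mitf, and Neu1 lay at 0.0202 FPKM. Whether the counting left out reads shared with similar or overlapping genes is not given in the sources used here, so the low levels of Gabarap and Neu1 are uncertain.

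Relative to other transcripts, Hsf1 knockdown in the LacZ line went with higher levels of most lysosomal members and of 5 autophagy factors. With TMM scaling, which measures each gene against the bulk of the other transcripts, 27 of the 39 tested members were higher in siHsf1 LacZ than in siControl LacZ libraries and 2 were lower (edgeR quasi-likelihood test over all genes, adjusted p under 0.05). Over all tested genes 21.1% were higher, 19.5% lower and 40.6% either. The median log2 fold change was 0.42 over the members and 0.02 over all tested genes. In 29 members every siHsf1 library lay above every siControl library, and in 2 the reverse held, against 26.4% and 23.5% of all tested genes. The genes were put together with this rise known, so these counts and medians are a description. Nothing is read from them against the background. The plot of effects by line gives every tested member.

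**Figure D1:**
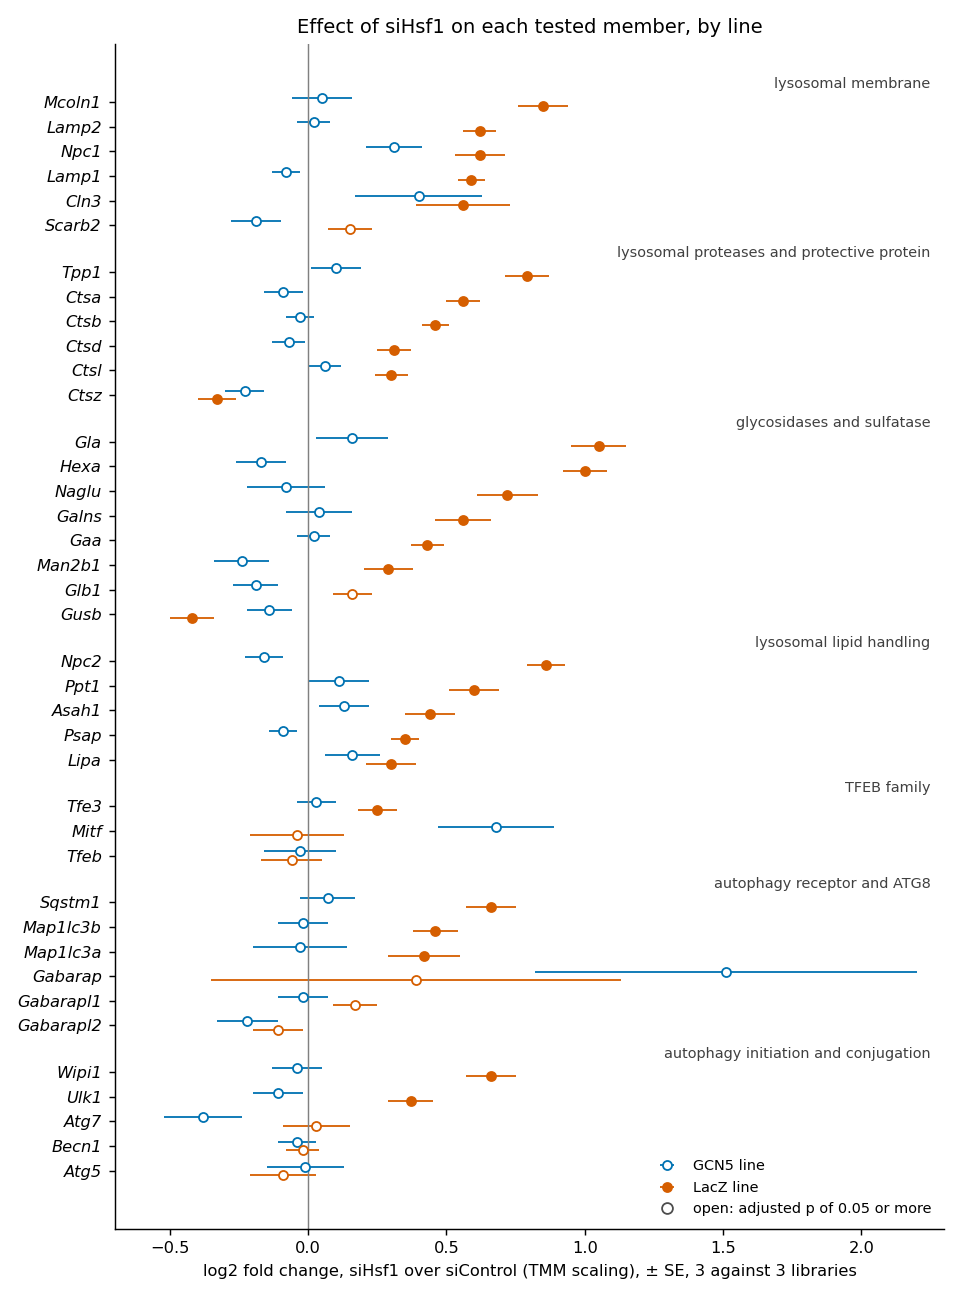
Log2 fold change of siHsf1 over siControl (x axis, TMM scaling, ± SE, 3 against 3 libraries) for the 39 tested members, grouped by role, in the GCN5 line (blue) and the LacZ line (orange). Filled points passed an adjusted p under 0.05: 29 members in the LacZ line (27 higher, 2 lower) and 0 in the GCN5 line.

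Of the transcription factors, 1 of 3 was called. Tfeb, the best-known driver of lysosomal genes (gene ID 21425, GRCm38 chromosome 17, 47737037 to 47792416), had 21.5, 22.2 and 22.2 CPM in siHsf1 LacZ libraries, against 21.5, 22.6 and 24.7 CPM in siControl LacZ libraries. These ranges overlapped, and the log2 fold change of -0.06 ± 0.11 did not pass (edgeR adjusted p = 0.679). Mitf, known for pigment cells and osteoclasts, had 8.97, 7.66 and 9.04 CPM against 8.94, 10.1 and 7.31 CPM in the same order, also with overlap (-0.04 ± 0.17, edgeR adjusted p = 0.88). Tfe3, the paralogue that shares targets with Tfeb, had 108, 115 and 103 CPM in siHsf1 LacZ and 89.7, 91.2 and 94.1 CPM in siControl LacZ libraries. Its groups did not overlap, and it was the only one of the 3 to pass, with the smallest change of the 27 higher members (0.25 ± 0.07, edgeR adjusted p = 0.00371).

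Of the 6 lysosomal membrane members, 5 were higher. Lamp1 (gene 16783, chromosome 8, 13159161 to 13175338) had 1437, 1499 and 1470 CPM in siHsf1 LacZ libraries, against 966, 1021 and 947 CPM in siControl LacZ libraries, a log2 fold change of 0.59 ± 0.05 (edgeR adjusted p = 1.28e-09). Every knockdown library lay above every control library by a margin far wider than the spread within either group. Mcoln1, the TRPML1 calcium channel whose opening activates calcineurin and TFEB (gene 94178, chromosome 8, 3500519 to 3515232), had 106, 137 and 112 CPM against 62.5, 65.1 and 68.7 CPM and the largest change of the 6 (0.85 ± 0.09, edgeR adjusted p = 3.91e-08). Lamp2, which also serves chaperone-mediated autophagy, and Npc1, the membrane cholesterol exporter, changed by 0.62 ± 0.06 and 0.62 ± 0.09. Cln3, a membrane protein mutated in juvenile Batten disease, had only 11.3, 12.3 and 11.5 CPM against 7.98, 7.72 and 8.06 CPM and changed by 0.56 ± 0.17 (edgeR adjusted p = 0.00943; adjusted p = 0.051 by DESeq2). Scarb2, a receptor of the lysosomal membrane, did not pass, although its 74.4, 73.8 and 67.9 CPM in siHsf1 LacZ libraries all exceeded the 65.9, 64.8 and 64.2 CPM of siControl LacZ libraries (0.15 ± 0.08, edgeR adjusted p = 0.126).

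Among the 6 proteases, counting the protective protein Ctsa, 5 were higher and 1 was lower. Tpp1, the tripeptidyl peptidase of late-infantile Batten disease, had 118, 137 and 122 CPM in siHsf1 LacZ libraries, against 72.8, 68.6 and 76.1 CPM in siControl LacZ libraries (0.79 ± 0.08, edgeR adjusted p = 1.5e-08). Ctsa, which protects beta-galactosidase and sialidase in a complex, had 264, 285 and 257 CPM against 182, 183 and 181 CPM (0.56 ± 0.06, edgeR adjusted p = 1.16e-07). Neither gene's groups overlapped. The endopeptidases changed less. Cathepsin B (Ctsb) changed by 0.46 ± 0.05 and cathepsin L (Ctsl) by 0.30 ± 0.06. Cathepsin D (Ctsd, gene 13033, chromosome 7, 142375916 to 142387870), the main aspartic protease, had 609, 678 and 592 CPM in siHsf1 LacZ and 491, 539 and 481 CPM in siControl LacZ libraries (0.31 ± 0.06, edgeR adjusted p = 0.0002). Ctsz, a carboxypeptidase, went the other way with 215, 234 and 203 CPM in siHsf1 LacZ and 264, 297 and 260 CPM in siControl LacZ libraries (-0.33 ± 0.07, edgeR adjusted p = 0.000298).

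The glycosidases and the sulfatase held the largest changes of the set, with 6 of 8 tested members higher and 1 lower. Gla, the alpha-galactosidase of Fabry disease (gene 11605, chromosome X, 134588169 to 134601005), had 59.5, 71.8 and 64.4 CPM in siHsf1 LacZ libraries, against 31.5, 33.3 and 29.9 CPM in siControl LacZ libraries (1.05 ± 0.10, edgeR adjusted p = 6.43e-09). Hexa, the beta-hexosaminidase alpha subunit of Tay-Sachs disease (gene 15211, chromosome 9, 59539545 to 59565109), had 211, 246 and 212 CPM against 106, 126 and 101 CPM (1.00 ± 0.08, edgeR adjusted p = 3.27e-10). The fitted folds were 2.07 for Gla and 2.01 for Hexa, with no overlap of libraries in either. Naglu, an enzyme of heparan sulfate breakdown, had 42.1, 53.5 and 49.4 CPM against 28.6, 30.2 and 29 CPM in the same order (0.72 ± 0.11). Smaller changes were seen for the sulfatase Galns (0.56 ± 0.10), the glycogen-degrading Gaa (0.43 ± 0.06) and the alpha-mannosidase Man2b1 (0.29 ± 0.09). Glb1, the beta-galactosidase, stood at 0.16 ± 0.07 and did not pass (edgeR adjusted p = 0.095). Gusb, the beta-glucuronidase, was lower, with 54.8, 53 and 54.1 CPM in siHsf1 LacZ and 68.7, 77 and 71.2 CPM in siControl LacZ libraries (-0.42 ± 0.08, edgeR adjusted p = 0.000134).

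All 5 lipid-handling members were higher. Npc2, the soluble protein that hands cholesterol to NPC1 (gene 67963, chromosome 12, 84754559 to 84773112), had 456, 473 and 467 CPM in siHsf1 LacZ libraries, against 260, 268 and 241 CPM in siControl LacZ libraries (0.86 ± 0.07, edgeR adjusted p = 1.73e-10). Ppt1, which removes palmitate from proteins, changed by 0.60 ± 0.09, the ceramidase Asah1 by 0.44 ± 0.09 and the saposin precursor Psap by 0.35 ± 0.05. Lipa, the acid lipase, had 83.4, 68.4 and 73.9 CPM against 67, 51.4 and 64.6 CPM and changed by 0.30 ± 0.09 (edgeR adjusted p = 0.0125). Its call was lost without siHsf1 LacZ replicate 1 (0.22, adjusted p = 0.09), without siControl LacZ replicate 2 (0.19, adjusted p = 0.078) and with only the 6 LacZ libraries in the fit (0.28, adjusted p = 0.053).

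**Figure D2:**
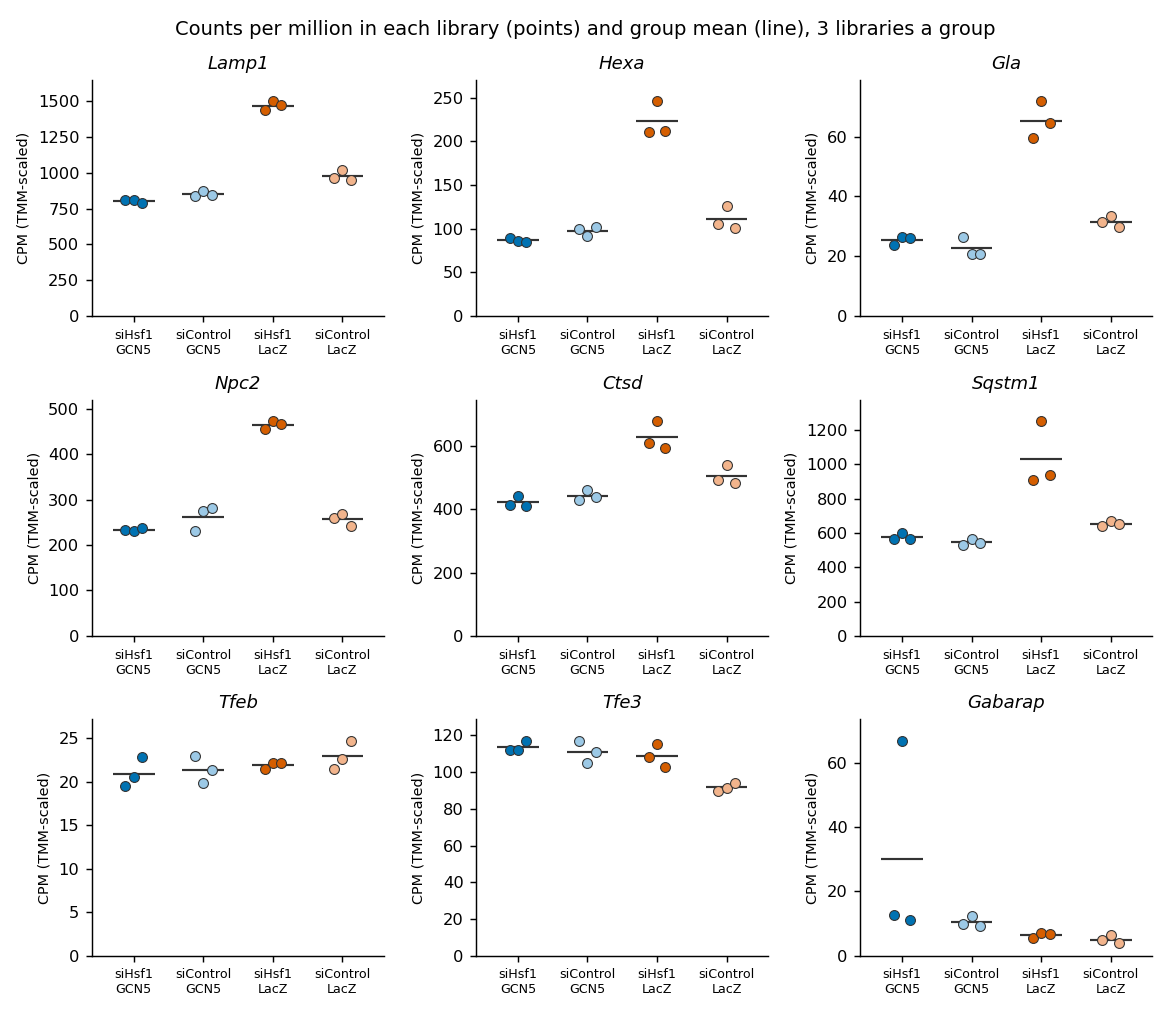
TMM-scaled CPM (y axis, from 0) of 9 members in each library (points) and the group mean (line), with 3 libraries in each of siHsf1 GCN5, siControl GCN5, siHsf1 LacZ and siControl LacZ. Lamp1, Hexa, Gla, Npc2, Ctsd and Sqstm1 are highest in the 3 siHsf1 LacZ libraries, Tfeb is level across groups, and the siHsf1 GCN5 mean of Gabarap rests on 1 library at 66.9 CPM.

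Autophagy members were mixed within each role, with 3 of 6 higher in the receptor and ATG8 group and 2 of 5 in initiation and conjugation. Sqstm1, the p62 receptor that ties ubiquitinated cargo to LC3 and is itself consumed by autophagy (gene 18412, chromosome 11, 50200152 to 50210820), had 908, 1251 and 939 CPM in siHsf1 LacZ libraries, against 640, 671 and 652 CPM in siControl LacZ libraries (0.66 ± 0.09, edgeR adjusted p = 4.79e-05). Its knockdown libraries all lay above the controls, and 1 stood well above the other two. Of the ubiquitin-like ATG8 proteins that coat autophagosomes, Map1lc3b had 163, 196 and 171 CPM against 128, 133 and 125 CPM and changed by 0.46 ± 0.08 (edgeR adjusted p = 0.000118). Map1lc3a changed by 0.42 ± 0.13 (edgeR adjusted p = 0.0142), but its 21.5, 29 and 24.6 CPM in siHsf1 LacZ overlapped the 16.9, 22 and 17.1 CPM of siControl LacZ libraries. That call was lost without siHsf1 LacZ replicate 2 (adjusted p = 0.11), without siControl LacZ replicates 1 (0.081) or 3 (0.063), and by DESeq2 (0.051). The GABARAP branch did not pass, with 0.39 ± 0.74 for Gabarap, 0.17 ± 0.08 for Gabarapl1 and -0.11 ± 0.09 for Gabarapl2.

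In the initiation and conjugation machinery, Wipi1, a phosphoinositide reader at the forming membrane, had 52.5, 49.2 and 51.8 CPM in siHsf1 LacZ libraries, against 34.1, 31.5 and 31.6 CPM in siControl LacZ libraries (0.66 ± 0.09, edgeR adjusted p = 1.22e-06). Ulk1, the initiating kinase, had 61.4, 64.5 and 58 CPM against 49.9, 44.7 and 47.5 CPM (0.37 ± 0.08, edgeR adjusted p = 0.000747). Neither overlapped between groups. Becn1, a subunit of the class III phosphoinositide kinase complex, stood at -0.02 ± 0.06, and the conjugation factors Atg5 and Atg7 at -0.09 ± 0.12 and 0.03 ± 0.12; these 3 did not pass.

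Summed markers of macrophages, cells rich in lysosomes, lay higher in the same libraries: the 10 listed came to 51.7 to 59.6 CPM in siHsf1 LacZ and 26.7 to 27.6 CPM in siControl LacZ libraries, and to 25.5 to 30.7 CPM in siHsf1 GCN5 and 23 to 26.9 CPM in siControl GCN5 libraries. The LacZ difference comes from Cd14 (40.6, 37.4 and 45.2 CPM under siHsf1, against 18, 20.6 and 19.7 CPM under siControl) and Cd68 (11.2, 13.8 and 13.3 CPM against 7.57, 6.07 and 6.57 CPM), the second itself a lysosomal membrane protein. Among the defining markers, Adgre1, Itgam, Aif1 and Tyrobp were at 0 in all 12 libraries, Ptprc and Lyz2 did not exceed 0.271 CPM, and Fcgr1 did not exceed 0.506 CPM. Csf1r was detected in every library, at 0.472 to 0.977 CPM in siHsf1 LacZ, 0.506 to 1.1 in siControl LacZ, 1.44 to 2.03 in siHsf1 GCN5 and 1.63 to 2.7 in siControl GCN5 libraries, so it lay higher in the GCN5 line, unlike Cd68. In such bulk samples, a change in the number of cells of a type and a change in RNA per cell cannot be told apart.

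Measured per spike-in RNA, the same members did not pass the test in the LacZ line. With each library scaled by its total of ERCC subgroup B in place of TMM, 0 of the 39 were called (edgeR). Of all tested genes 7.02% were called, 0.993% higher and 6.03% lower. At an unadjusted edgeR p under 0.05 there were 4 members, and the share of all genes at that threshold was not computed. This scaling moved the median log2 fold change of all tested genes to -0.35, while the members' median was 0.04. A spike-in fit with the replicate number as a block called 4 members, 2 higher and 2 lower. The share of all tested genes called in that fit was not computed. Without the block the replicate spread was wide: the common biological coefficient of variation was 0.274, against 0.089 with TMM scaling. Gla, for example, had 77.6, 47.8 and 60.6 spike-scaled CPM in siHsf1 LacZ libraries, against 50.9, 31.3 and 36.1 in siControl LacZ libraries, and changed by 0.65 ± 0.32 (edgeR adjusted p = 0.199). Of the 27 members that were higher with TMM scaling, 20 had a spike-in log2 fold change above 0 and 7 below 0 (Psap, Ctsd, Ctsl, Tfe3, Man2b1, Lipa and Ulk1), in a range of -0.13 to 0.65. The 2 lower members, Gusb and Ctsz, were at -0.77 ± 0.32 and -0.70 ± 0.32. The higher levels with TMM are thus shares among transcripts, and the amount per spike-in RNA was measured with a wide error.

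**Figure D3:**
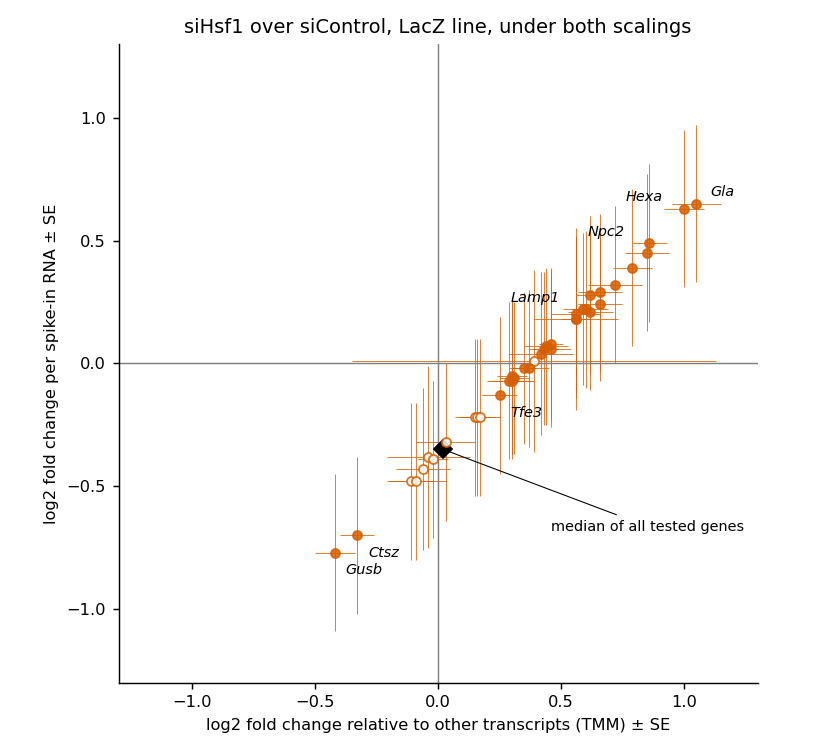
Log2 fold change of siHsf1 over siControl in the LacZ line relative to other transcripts (x axis, TMM) and per spike-in RNA (y axis), each ± SE, for the 39 tested members; filled points passed with TMM. The black diamond is the median of all tested genes (0.02 and -0.35), and the members lie along a line shifted down by about that amount, so 7 of the 27 higher members fall below 0 on the y axis.

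Shares within a library need neither scaling. The 40 members took 0.931, 1.04 and 0.947% of gene counts in siHsf1 LacZ libraries, against 0.681, 0.7 and 0.682% in siControl LacZ libraries, a ratio of means of 1.41. In the GCN5 line they took 0.625, 0.647 and 0.625% under siHsf1, against 0.631, 0.652 and 0.633% under siControl, a ratio of 0.99. The LacZ groups were fully apart, and the GCN5 groups overlapped. The genes were put together for a rise against growth genes in siHsf1 LacZ cells, so the LacZ values of both measures describe that choice. For each count of 25 nucleolar ribosome biogenesis genes there were 2.77, 2.9 and 2.74 member counts in siHsf1 LacZ libraries, against 1.07, 1.05 and 1.06 in siControl LacZ libraries. The same quotient was 0.98, 1 and 1 in siHsf1 GCN5 and 0.962, 1.05 and 1.03 in siControl GCN5 libraries.

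**Figure D4:**
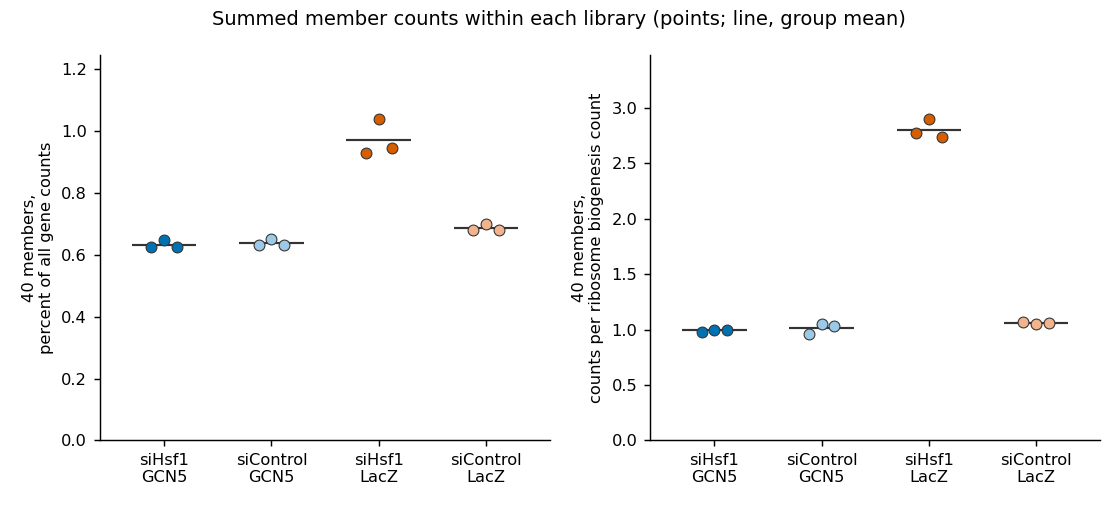
Summed counts of the 40 members as percent of all gene counts (left) and per count of 25 ribosome biogenesis genes (right) in each library (points; line, mean of 3 libraries). The siHsf1 LacZ libraries, for whose rise the genes were put together, lie at 0.931 to 1.04% and 2.74 to 2.9. The siControl LacZ libraries lie at 0.681 to 0.7% and 1.05 to 1.07. Libraries of the GCN5 line lie lower on the left, at 0.625 to 0.652%, and at 0.962 to 1.05 on the right.

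In the GCN5 line the knockdown left no member past the threshold with TMM scaling. Of the 39 tested, 0 were called by edgeR and 0 by DESeq2, against 0.164% of all tested genes called by edgeR, 0.0656% higher and 0.0985% lower. At an unadjusted edgeR p under 0.05 there were 9 members. The share of all genes at that threshold was not computed, so nothing is read from the 9. The member median was -0.03 and that of all genes 0. Member values ran from -0.38 to 1.51 on the log2 scale, and to 0.68 without Gabarap. In 3 members every siHsf1 library lay above every siControl library (Npc1, Asah1 and Mitf) and in 8 below (Lamp1, Scarb2, Ctsz, Hexa, Glb1, Psap, Ulk1 and Atg7), against 9.14% and 9.71% of all tested genes. Hsf1 transcripts fell in this line too, by 0.88 on the log2 scale, against 1.28 in the LacZ line.

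The members with the largest changes in the LacZ line were near 0 in the GCN5 line. Gla had 23.6, 26.6 and 26 CPM in siHsf1 GCN5 libraries, against 26.5, 20.9 and 20.8 CPM in siControl GCN5 libraries (0.16 ± 0.13, edgeR adjusted p = 0.686). Hexa had 89.7, 85.6 and 85.2 CPM against 100, 91.2 and 102 CPM (-0.17 ± 0.09, edgeR adjusted p = 0.533). Npc2 had 234, 231 and 237 CPM against 230, 274 and 281 CPM (-0.16 ± 0.07, edgeR adjusted p = 0.469). Hexa was lower in each knockdown library, whereas the groups of Gla and Npc2 overlapped. Lamp1, at 812, 811 and 786 CPM against 836, 873 and 843 CPM, also lay slightly lower (-0.08 ± 0.05, edgeR adjusted p = 0.588). Sqstm1 had 563, 601 and 563 CPM in siHsf1 GCN5 and 532, 567 and 542 CPM in siControl GCN5 libraries (0.07 ± 0.10). Ctsd and Map1lc3b stood at -0.07 ± 0.06 and -0.02 ± 0.09, Tfeb at -0.03 ± 0.13 and Tfe3 at 0.03 ± 0.07. Mitf had 10.8, 9.88 and 9.15 CPM in knockdown libraries, against 5.41, 6.51 and 6.64 CPM under siControl; its groups were apart, but it did not pass (0.68 ± 0.21, edgeR adjusted p = 0.284).

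Gabarap was the one member called in this line, with spike-in scaling only (1.56 ± 0.36, edgeR adjusted p = 0.0497; 0.041% of all tested genes were called, 0.0328% higher and 0.00821% lower). It rests on 1 library: Gabarap had 12.7, 66.9 and 11 TMM-scaled CPM in siHsf1 GCN5 libraries, against 9.73, 12.5 and 9.41 CPM in siControl GCN5 libraries. Without siHsf1 GCN5 replicate 2 the spike-in log2 fold change was 0.12 (adjusted p = 1), and with TMM scaling it did not pass (1.51 ± 0.69, edgeR adjusted p = 0.53). The call was also lost without any 1 of the siControl GCN5 replicates (1.49 to 1.65, adjusted p of 0.2 to 0.58).

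Under siControl the GCN5 line differed from the LacZ line at a minority of members. With TMM scaling 10 members passed, 4 higher and 6 lower in siControl GCN5 than in siControl LacZ libraries (edgeR), against 5.45% and 4.15% of all tested genes and 9.6% in either direction, and the member median was -0.05. Cln3 was lowest, with 5.14, 4.34 and 3.6 CPM in siControl GCN5 libraries, against 7.98, 7.72 and 8.06 CPM in siControl LacZ libraries (-0.86 ± 0.21, edgeR adjusted p = 0.00753). That call was lost without siControl GCN5 replicate 3 (-0.74, adjusted p = 0.052) and by DESeq2 (adjusted p = 0.053). Gla was also lower, at 26.5, 20.9 and 20.8 CPM against 31.5, 33.3 and 29.9 CPM (-0.47 ± 0.12, edgeR adjusted p = 0.00879), and this call was lost without siControl GCN5 replicate 2 or 3 (-0.42 in both). The other lower members were Ctsa (-0.32 ± 0.07), Ctsb (-0.22 ± 0.05), Lamp1 (-0.20 ± 0.05) and Psap (-0.17 ± 0.05). Of the 4 higher members, Wipi1 was the most increased (0.51 ± 0.09, edgeR adjusted p = 0.000546). It had 44.6, 45.9 and 47.6 CPM in siControl GCN5 libraries, against 34.1, 31.5 and 31.6 CPM in siControl LacZ libraries. Gabarap had a larger log2 fold change (1.08) but was not called. Its 9.73, 12.5 and 9.41 CPM in siControl GCN5 libraries all exceeded the 4.82, 6.32 and 3.84 CPM of siControl LacZ libraries. Tfe3 (0.28 ± 0.07), Glb1 (0.25 ± 0.08) and Gaa (0.18 ± 0.06) were higher with TMM but had negative spike-in values (-0.11 ± 0.32, -0.16 ± 0.32 and -0.22 ± 0.32). The calls of Glb1 and Gaa were each lost in 9 settings, among them the fit without a filter, DESeq2 and leaving out any 1 siControl GCN5 library, and that of Psap in 6. Lamp1 and Tfe3 lost theirs without siControl GCN5 replicate 1 or 3, and Tfe3 also without siControl LacZ replicate 1. Leaving out siControl GCN5 replicate 1, 2 or 3 left 5, 6 and 3 members called. Per spike-in RNA 0 members were called (edgeR), against 1.5% of all tested genes, 0.542% higher and 0.96% lower. At an unadjusted edgeR p under 0.05 there were 8, without a share of all genes computed at that threshold.

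Under siHsf1 the lines were far apart. With TMM scaling 26 members were lower and 2 higher in siHsf1 GCN5 than in siHsf1 LacZ libraries (edgeR), against 22.6% and 22.3% of all tested genes and 44.8% in either direction, and the member median was -0.41 beside -0.01 for all genes. This comparison shares the siHsf1 LacZ libraries with the knockdown comparison that described the genes, so its counts are a description too. Hexa had 89.7, 85.6 and 85.2 CPM in siHsf1 GCN5 and 211, 246 and 212 CPM in siHsf1 LacZ libraries (-1.36 ± 0.08, edgeR adjusted p = 3.19e-12). Gla followed at -1.36 ± 0.11, Mcoln1 at -1.05 ± 0.10, Cln3 at -1.02 ± 0.19, Npc2 at -0.99 ± 0.07 and Ctsa at -0.97 ± 0.07. Lamp1, at 812, 811 and 786 CPM against 1437, 1499 and 1470 CPM, had the smallest adjusted p of the members (-0.87 ± 0.05, edgeR adjusted p = 1.03e-12). Sqstm1 was at -0.84 ± 0.09, Map1lc3b at -0.62 ± 0.09 and Ctsd at -0.57 ± 0.06, each called, while Tfeb (-0.07 ± 0.12), Tfe3 (0.06 ± 0.07) and Mitf (0.22 ± 0.18) were not. The other lower members were, in the membrane group, Lamp2 (-0.65 ± 0.06), Npc1 (-0.30 ± 0.09) and Scarb2 (-0.25 ± 0.08). Among enzymes they were Tpp1 (-0.95 ± 0.08), Naglu (-0.95 ± 0.12), Ctsb (-0.71 ± 0.05), Man2b1 (-0.60 ± 0.09), Galns (-0.44 ± 0.11), Gaa (-0.24 ± 0.06) and Ctsl (-0.19 ± 0.06). In lipid handling they were Psap (-0.61 ± 0.05), Ppt1 (-0.56 ± 0.10) and Asah1 (-0.35 ± 0.09), and in autophagy Map1lc3a (-0.71 ± 0.15), Atg7 (-0.41 ± 0.13) and Ulk1 (-0.29 ± 0.09). Of these, Npc1 lost its call without siHsf1 LacZ replicate 2 or siHsf1 GCN5 replicate 1 or 3, and Scarb2 without siHsf1 LacZ replicate 1, siHsf1 GCN5 replicate 3 or the filter. Ctsl lost its call without siHsf1 GCN5 replicate 3, and Atg7 without siHsf1 GCN5 replicate 2. Of the 2 higher members, Gusb stood at 0.44 ± 0.08 (edgeR adjusted p = 0.000128). Gabarap stood at 2.19 ± 0.66 with the single high library described above (0.88 without it). It was not called without any 1 of the siHsf1 LacZ libraries. Its 12.7, 66.9 and 11 CPM in siHsf1 GCN5 libraries all exceeded the 5.66, 7.07 and 6.84 CPM of siHsf1 LacZ libraries.

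Per spike-in RNA, 7 members were lower in siHsf1 GCN5 than in siHsf1 LacZ libraries and 1 was higher, against 3.62% and 1.82% of all tested genes and 5.44% in either direction (edgeR). The lower ones were Hexa (-1.40 ± 0.33, edgeR adjusted p = 0.000923), Gla (-1.40 ± 0.33, edgeR adjusted p = 0.001), Mcoln1 (-1.08 ± 0.32), Npc2 (-1.05 ± 0.32), Ctsa (-1.02 ± 0.32), Naglu (-1.0 ± 0.33) and Tpp1 (-0.99 ± 0.32). Hexa had 89.6, 84.5 and 67.9 spike-scaled CPM in siHsf1 GCN5 libraries, against 276, 163 and 199 in siHsf1 LacZ libraries, with no overlap. The higher one was Gabarap (2.24 ± 0.36), which stood at 0.81 (adjusted p = 0.5) without siHsf1 GCN5 replicate 2. The count of 8 ran from 2 without siHsf1 GCN5 replicate 2 to 15 without siHsf1 LacZ replicate 2, and was 3 without any 1 of the other siHsf1 libraries.

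Whether the knockdown effect itself differed between the lines was tested as the interaction, the siHsf1 effect in the GCN5 line minus that in the LacZ line. With TMM scaling 23 members had a lower effect in the GCN5 line and 0 a higher one (edgeR), against 10.9% and 11% of all tested genes and 21.9% in either direction; the member median was -0.42, and that of all tested genes -0.02. The LacZ effect for which the genes were put together is subtracted here, so that choice favours a negative difference, and nothing is read from the count against the background. Hexa differed most: its siHsf1 effect was -0.17 ± 0.09 in the GCN5 line and 1.00 ± 0.08 in the LacZ line (difference -1.18 ± 0.12, edgeR adjusted p = 1.01e-07). For Npc2 the effects were -0.16 ± 0.07 and 0.86 ± 0.07 (difference -1.02 ± 0.09, edgeR adjusted p = 2.42e-08). For Gla they were 0.16 ± 0.13 and 1.05 ± 0.10 (difference -0.89 ± 0.16, edgeR adjusted p = 0.000225). Lamp1 had -0.08 ± 0.05 and 0.59 ± 0.05 (difference -0.67 ± 0.07, edgeR adjusted p = 1.96e-07), and Sqstm1 0.07 ± 0.10 and 0.66 ± 0.09 (difference -0.59 ± 0.13, edgeR adjusted p = 0.00551). These 5 span the membrane, the glycosidases, lipid handling and autophagy cargo selection. Differences past the threshold were also found for the membrane members Mcoln1 (-0.80 ± 0.14), Lamp2 (-0.60 ± 0.09) and Scarb2 (-0.34 ± 0.12), and for the proteases Tpp1 (-0.69 ± 0.12), Ctsa (-0.65 ± 0.09), Ctsb (-0.49 ± 0.07), Ctsd (-0.39 ± 0.09) and Ctsl (-0.25 ± 0.09). The remaining glycosidases and the sulfatase were Naglu (-0.81 ± 0.18), Man2b1 (-0.53 ± 0.13), Galns (-0.52 ± 0.16), Gaa (-0.42 ± 0.08) and Glb1 (-0.35 ± 0.11). In lipid handling and autophagy the others were Ppt1 (-0.49 ± 0.14), Psap (-0.44 ± 0.07), Wipi1 (-0.70 ± 0.13), Ulk1 (-0.48 ± 0.12) and Map1lc3b (-0.47 ± 0.12).

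By role, the difference passed for 4 of 6 membrane members, 5 of 6 proteases, 7 of 8 tested glycosidases and sulfatase, 3 of 5 lipid-handling members, 2 of 6 of the receptor and ATG8 group, 2 of 5 initiation and conjugation members and 0 of the 3 TFEB family members. Tfeb differed by 0.03 ± 0.16, Tfe3 by -0.22 ± 0.10 and Mitf by 0.72 ± 0.27 (edgeR adjusted p = 0.921, 0.117 and 0.0578). Cln3, higher in siHsf1 LacZ, did not differ past the threshold between lines (-0.17 ± 0.29, edgeR adjusted p = 0.742), nor did Gabarap (1.12 ± 1.02). The call of Ctsl was lost in 14 settings and kept in 2. Those of Scarb2, Glb1 and Galns were lost in 10, 8 and 4 settings. Most of these settings left out 1 library. Ppt1 lost its call without siControl GCN5 replicate 1 (-0.39, edgeR adjusted p = 0.067), and leaving out 1 library gave 18 to 25 calls. Per spike-in RNA 0 members were called (edgeR), against 0.394% of all tested genes, 0.172% higher and 0.222% lower. At an unadjusted edgeR p under 0.05 there were 2, without a share of all genes computed at that threshold. There the all-gene median moved to 0.32 and the member median to -0.08, and Ctsl stood at 0.07 ± 0.45, against -0.25 ± 0.09 with TMM. Depth differs between the lines in every library, so depth and line cannot be told apart here.

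Other genes of the pathway, from lists beside the 40, are given for the LacZ line with TMM scaling (edgeR, background as above). Of 16 tested subunits and partners of the V-ATPase, the proton pump that acidifies lysosomes, 13 were higher and 0 lower in siHsf1 LacZ, with a median of 0.48; Atp6v0d1 (0.88 ± 0.07), Atp6v0a1 (0.59 ± 0.06), Atp6v0b (0.75 ± 0.09) and Atp6v1b2 (0.63 ± 0.08) had the smallest p-values. Of 21 other lysosomal hydrolases, 13 were higher and 0 lower (median 0.32), among them the phospholipase Pla2g15 (0.97 ± 0.09). Of 14 other membrane proteins, 7 were higher and 0 lower (median 0.27), among them the chloride exchanger Clcn7 (1.02 ± 0.09), Tmem55b (0.83 ± 0.10), the tetraspanin Cd63 (0.51 ± 0.07) and Tmem192 (0.49 ± 0.10). Sorting factors were mixed, with 5 of 10 higher and 3 lower: Gnptg (0.90 ± 0.14), Gga3 (0.35 ± 0.07) and Vps35 (0.20 ± 0.05) were higher, and the mannose 6-phosphate receptor M6pr (-0.31 ± 0.06) was lower.

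In the autophagy lists every called gene was higher. Of 27 other core autophagy genes, 10 were higher and 0 lower (median 0.20), including Uvrag (0.72 ± 0.09), Vmp1 (0.42 ± 0.07), Rb1cc1 (0.46 ± 0.08) and Atg3 (0.38 ± 0.08). Of 9 other selective receptors, 4 were higher and 0 lower (median 0.13), namely Calcoco1 (0.77 ± 0.08), Tex264 (0.69 ± 0.08), Optn (0.64 ± 0.09) and Nbr1 (0.42 ± 0.06). Of 18 regulators of mTORC1 and TFEB, 8 were higher and 0 lower (median 0.22). The folliculin partners Fnip2 (1.35 ± 0.09) and Fnip1 (0.88 ± 0.08), which act in nutrient sensing at the lysosome, led this list before Tsc1 (0.67 ± 0.09) and Lamtor3 (0.48 ± 0.08). Fnip2 was also called per spike-in RNA (0.94 ± 0.32), the only gene of these pathway lists that was. Nucleolar ribosome biogenesis went the opposite way: all 25 genes were lower in siHsf1 LacZ, with a median of -0.92, including Ncl (-1.14 ± 0.05), Mybbp1a (-1.04 ± 0.06), Dkc1 (-1.24 ± 0.07) and Nolc1 (-1.0 ± 0.06), and 24 of them also per spike-in RNA. In the GCN5 line the medians of these 8 lists lay between -0.05 and 0.03.

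**Figure D5:**
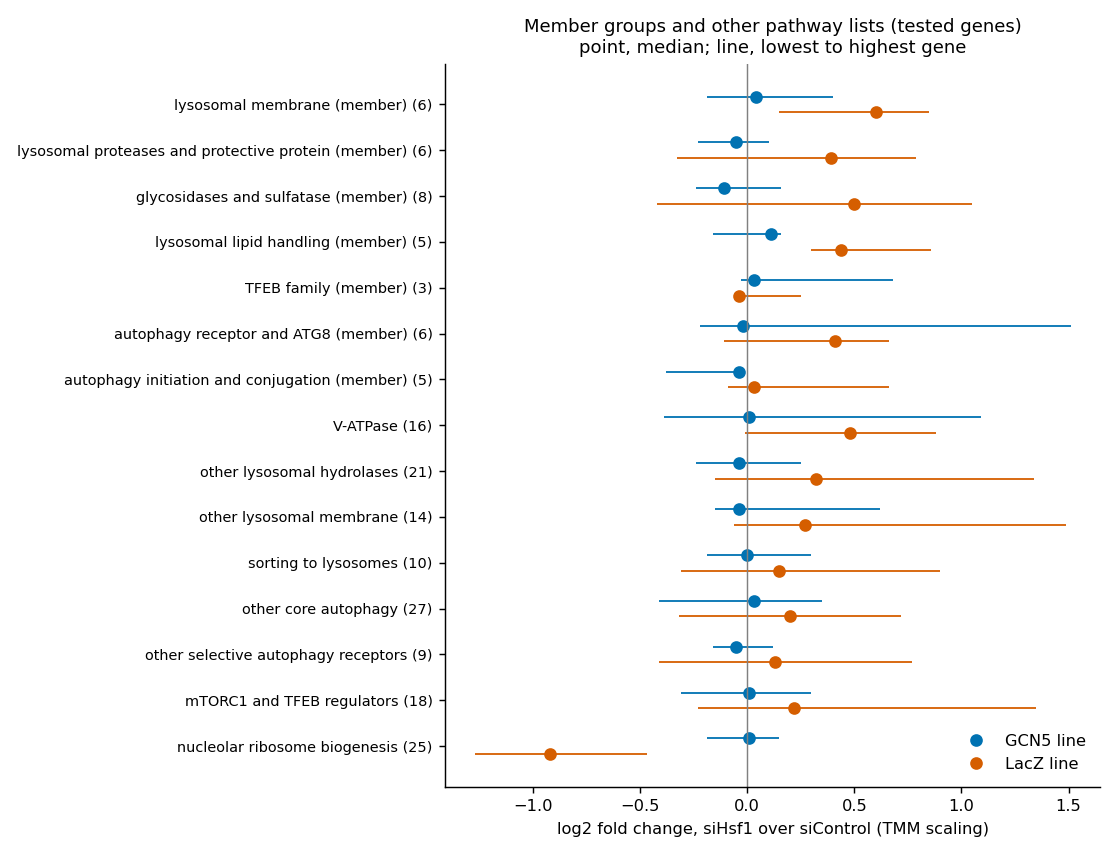
Log2 fold change of siHsf1 over siControl (x axis, TMM scaling) for the 7 role groups of members and 8 other lists, in the GCN5 line (blue) and the LacZ line (orange); points are medians over tested genes (number in brackets) and lines run from the lowest to the highest gene. In the LacZ line the V-ATPase median is 0.48 and the ribosome biogenesis median -0.92, and in the GCN5 line the medians of the 8 other lists sit between -0.05 and 0.03.

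In the line comparison under siHsf1, 13 of 16 V-ATPase genes were lower in siHsf1 GCN5 than in siHsf1 LacZ (Atp6v0d1 -1.03 ± 0.08, Atp6v0b -0.88 ± 0.09), as were 15 of 21 other hydrolases, and all 25 ribosome biogenesis genes were higher (Ncl 1.15 ± 0.05, Mybbp1a 1.03 ± 0.06). The hydrolase Ctsc, named after its value was seen, was the 1 called higher there (0.76 ± 0.10), and over all tested genes 22.6% were lower and 22.3% higher. The interaction passed with a lower effect in the GCN5 line for 10 of 16 V-ATPase genes (Atp6v0d1 -1.07 ± 0.11, Atp6ap1 -0.43 ± 0.08), for 9 of 21 other hydrolases (Pla2g15 -1.16 ± 0.14) and for 6 of 18 mTORC1 and TFEB regulators (Fnip2 -1.09 ± 0.14, Fnip1 -0.69 ± 0.13). All 25 ribosome biogenesis genes had a higher one (Ncl 1.14 ± 0.07, Dkc1 1.35 ± 0.10). Over all tested genes the interaction was lower for 10.9% and higher for 11%.

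c-MYC peaks lay within 1000 bases of the start of 14 members in the Hsf1 CKO list and of 28 in the Hsf1 WT list. Among tested members these are 14 of 39 (35.9%) in the CKO list and 27 of 39 (69.2%) in the WT list, against 35.2% and 77.3% of tested genes, so the members were near the background in the CKO list and somewhat below it in the WT list. All 14 are also in the WT list: Mcoln1, Ctsa, Hexa, Glb1, Gaa, Gusb, Naglu, Tfeb, Sqstm1, Gabarap, Gabarapl1, Gabarapl2, Becn1 and Wipi1. The lists are the authors' calls, 1 per genotype without replicates, and differ in extent, with 6386 peaks over 11.5 Mb in the CKO list and 220037 peaks over 510 Mb in the WT list. No test between genotypes is possible from them, and peak signals are compared only within a list.

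Within the CKO list the members' summed signals ran from 1.71 to 5.46 (median 2.46, the authors' coverage units), the highest at Wipi1 (mm10 chromosome 11, 109609843 to 109612402). Within the WT list they ran from 2.48 to 90.5 (median 7.04). The top value belongs to Naglu, whose start lies in a peak of 32067 bases (chromosome 11, 101052574 to 101084640), followed by Sqstm1 at 19 (chromosome 11, 50209807 to 50215309) and Becn1 at 15.4. At the printed promoters, WT peaks cover Mcoln1 (chromosome 8, 3499865 to 3501576), Lamp1 (chromosome 8, 13156167 to 13160579), Ctsa (chromosome 2, 164831578 to 164834720) and Hexa (chromosome 9, 59537306 to 59541182). Neither list has a peak within 1000 bases of the annotated starts of Gla or Cln3, although both printed windows carry 2 E-box cores; that of Cln3 belongs to an alternative start downstream of the annotated one. The other members without a peak were Lamp2, Scarb2, Ctsd, Ctsz, Tpp1, Galns, Asah1, Ppt1, Mitf and Ulk1.

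Peaks and motifs are set beside expression in the LacZ line as a description only. The genes were put together with both their peaks and their rise known, so no link between these is read from the counts. Over all tested genes 21.1% were higher, a share not computed by peak or motif. Of 14 members with a peak in the CKO list, 7 were higher in siHsf1 LacZ (median log2 fold change 0.41), of 13 tested members with a peak in the WT list alone, 11 (median 0.35), and of 12 with no peak, 9 (median 0.50). Among members with an E-box core in the printed kind of window, 9 of 12 were higher (median 0.50), against 13 of 21 without one (median 0.35). Hexa, with no core in its window, and Gla, with 2 cores and no peak, had the 2 largest changes.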

How the data were processed

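RNA was measured in 12 libraries (4 groups of 3). The authors deposited a table of raw counts per gene, ERCC rows included, and a table of FPKM; HISAT2, DESeq2 and build GRCm38 are named in the submitters' processing notes, and strand use in counting is not stated there. Peak lists, 1 per genotype, hold the authors' signal, that is summed coverage, per peak; Bowtie2, SEACR and mm10 are named in the submitters' processing notes, and no source used here gives the scaling of that signal or says whether libraries were pooled, although the series' design text names an E. coli spike-in.

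Counts were tested with edgeR 4.0.16 (R 4.3.3, limma 3.58.1), robust quasi-likelihood, on all 12 libraries with 4 group means, after filterByExpr with a minimum count of 10, and p-values were adjusted by Benjamini-Hochberg over 12187 genes with a threshold of 0.05. Depth was 3693554 to 8162787 gene counts per library. Libraries were scaled either by TMM or by the summed counts of 23 ERCC transcripts (subgroup B, whose amount is the same in both mixes); that subgroup list was written from general knowledge. Values after ± are SE for log2 fold changes and SD for levels, and CPM are TMM-scaled unless said to be spike-scaled. Low-level log2 changes are shrunk slightly by the model's prior count. Peaks were assigned within 1000 bases of a gene start with at least 1 base of overlap. Promoter windows are from RefSeq, GRCm38.p6. DESeq2 1.42.0, no filter, a replicate block, 6-library fits, all 92 ERCC transcripts, leaving out each library and other peak settings were tried. Members and lists were chosen with earlier results of these data known; every member called was to be described, with Tfeb, Tfe3, Mitf, Sqstm1, Map1lc3b, Lamp1, Ctsd and Gabarap always, and up to 4 genes of each other list by p. Some genes of the list of other hydrolases are not reported here.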

Additional observations from a re-analysis of the deposited data

Results flagged for a closer look

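The siHsf1 effect differed between the GCN5 and LacZ lines for 23 members, by the interaction term with TMM scaling (edgeR, adjusted p under 0.05), all with a lower effect in the GCN5 line, against 10.9% of all tested genes lower, 11% higher and 21.9% either. The genes were put together for their rise in siHsf1 LacZ cells, which this difference subtracts. Of the 23 members, 21 were called higher in siHsf1 than in siControl LacZ libraries and 2, Scarb2 and Glb1, were not. For these 2, every siHsf1 GCN5 library lay below every siControl GCN5 library. On the log2 scale, GCN5 minus LacZ, the glycosidases and sulfatase differed by -1.18 (Hexa), -0.89 (Gla), -0.81 (Naglu), -0.53 (Man2b1), -0.52 (Galns), -0.42 (Gaa) and -0.35 (Glb1). The proteases differed by -0.69 (Tpp1), -0.65 (Ctsa), -0.49 (Ctsb), -0.39 (Ctsd) and -0.25 (Ctsl). Among membrane members the values were -0.80 (Mcoln1), -0.67 (Lamp1), -0.60 (Lamp2) and -0.34 (Scarb2), and in lipid handling -1.02 (Npc2), -0.49 (Ppt1) and -0.44 (Psap). Autophagy members differed by -0.70 (Wipi1), -0.59 (Sqstm1), -0.48 (Ulk1) and -0.47 (Map1lc3b). Some of the 23 calls depended on the processing: those of Ctsl, Scarb2, Glb1, Galns and Ppt1 were lost in 14, 10, 8, 4 and 1 settings. The 2 lines also differ in depth, 3693554 to 4274852 gene counts in GCN5 and 7224496 to 8162787 in LacZ libraries, and its part in these differences was not tested. Per spike-in RNA 0 of the 39 tested members passed (edgeR). At an unadjusted edgeR p under 0.05 there were 2, without a share of all genes computed at that threshold.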

How the results depend on the processing

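With TMM scaling, leaving out 1 library at a time left 28 to 29 members called for siHsf1 against siControl in LacZ, 0 in GCN5, 3 to 10 for GCN5 against LacZ under siControl, 25 to 28 under siHsf1 and 18 to 25 for the interaction. Per spike-in RNA the same ranges were 0 to 2, 0 to 1, 0 to 1, 2 to 15 and 0. The member median minus the all-gene median ranged from 0.34 to 0.42 in LacZ, -0.03 to 0.01 in GCN5, -0.07 to -0.03 between lines under siControl, -0.42 to -0.34 under siHsf1 and -0.45 to -0.37 for the interaction. Without the filter on low counts that median was -0.33 between lines under siHsf1 and -0.37 for the interaction, and spike-in calls numbered 0 for siHsf1 in GCN5 and 5 between lines under siHsf1. With only the 6 libraries compared in the fit, spike-in calls numbered 0 for siHsf1 in GCN5 and 4 between lines under siHsf1, and TMM called 1 member for siHsf1 in GCN5. All 92 ERCC transcripts as the scale gave 0 calls for siHsf1 in GCN5. The cause of these shifts was not tested. With TMM scaling, same-numbered libraries correlated at -0.0615 to 0.101 in their deviations from group means, so the numbers were not taken as pairs. TMM removes the spike-in scale, so these correlations cannot show whether that scale is paired by number. A fit with the replicate block gave, per spike-in RNA, 4 calls for siHsf1 in LacZ (2 higher and 2 lower), 0 in GCN5, 8 between lines under siControl and 17 under siHsf1. The shares of all tested genes called in the block fit were not computed, so its member counts are not read against a background. The spike-in share (subgroup B) ran in the same order of numbers in both LacZ groups and in siControl GCN5. It was 0.177, 0.356 and 0.248% in siHsf1 LacZ and 0.142, 0.239 and 0.19% in siControl LacZ libraries. In siControl GCN5 libraries it was 0.197, 0.296 and 0.238%, and in siHsf1 GCN5 libraries, in another order, 0.229, 0.232 and 0.286%. Each library correlated best with its own number in 3 of 3 cases for siHsf1 in GCN5, 2 of 3 for the lines under siControl and 1 of 3 in the other comparisons. Called members had 1195 values recomputed without a switch between TMM and spike-in scaling. Of these, 1063 kept direction and call, 132 kept direction and lost the call, and 0 changed direction. Between the scalings signs did differ. Of the 27 members higher with TMM in siHsf1 LacZ, 7 were below 0 per spike-in RNA and 20 above. Of the 4 higher between lines under siControl, 3 were below 0 and 1 above. In the interaction 1 of 23, Ctsl, changed sign. The largest group of lost calls in the interaction was Ctsl, in 14 settings, before Scarb2 in 10 and Glb1 in 8. Counting only peaks at or above the median signal of the list left 9 member starts with a peak in the CKO list. Depth limits Neu1, Cln3, Mitf and Gabarap most, and the spread of the spike-in scale limits every per-spike-in statement.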
